A study of Mus musculus with 16 samples.

Results

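The genes that carry signals from Toll-like receptors (TLRs) and NOD proteins to the transcription factor NF-kB were followed across 6 groups of mouse bone-marrow myeloid progenitors. They were chosen by name: 34 genes in 7 roles, each read from a probe set that carries its symbol alone and, where there was more than 1, from the brightest by mean over all arrays. In all, 32 of the 34 were measured, among 22180 genes. Traf3 and Chuk were not analysed here. Of the 32, 31 had 1 probe set and Nod2 had 2.

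RNA was measured on 16 arrays from wild-type C57BL/6 mice whose drinking water for 3 weeks held either ampicillin, metronidazole, neomycin and vancomycin at 1 g/L each plus 2% sucrose, or 2% sucrose without antibiotics. Cells without lineage markers (a panel that held Sca-1) or CD105 and with Kit on their surface were sorted into common myeloid progenitors (CMPs, CD16/32 intermediate and CD115 negative), granulocyte-monocyte progenitors (GMPs, CD16/32 high and CD115 negative) and committed monocyte progenitors (cMoPs, with both CD115 and Ly6C). CMPs had 3 control and 3 antibiotic arrays, and GMPs and cMoPs each had 2 control and 3 antibiotic arrays. The labels give neither the age of the mice nor whether an array is 1 mouse or a pool, so the p-values measure only the spread among these samples. Precision is limited by how few arrays a group has.

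In the textbook pathway, TLRs bind microbial molecules and recruit the adaptors MyD88 and TRIF, which pass the signal through IRAK kinases, TRAF ligases and the TAK1 kinase to the IkB kinases. NOD1 and NOD2 sense fragments of bacterial cell walls inside the cell, and CARD9 relays signals from fungal receptors to the same kinases. IkB kinases mark IkB proteins for destruction, which frees NF-kB dimers to enter the nucleus, where they also switch on several of the pathway's own inhibitors. Bone-marrow progenitors carry several of these receptors and can sense microbial products.

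Each value is a log2 signal as deposited, so a difference of 1 is a doubling, and differences are the group named first minus the other, with a standard error (SE). The medians of the 16 arrays lay between 4.04 and 4.17, and 30 of the 32 genes were brighter than the median gene (mean over all arrays 4.42). Relb and Nfkbiz were not. Over genes, which are not independent replicates, pairs of arrays from 1 group correlated at r = 0.985 to 0.991 (14 pairs) and pairs from separate groups at 0.961 to 0.991 (106 pairs). Marker genes followed the labels. The mean of 8 CMP markers (among them Gata1 and Pf4) was 8.92 to 9.15 on the CMP arrays, 5.94 to 6.71 on the GMP arrays and 4.68 to 5.08 on the cMoP arrays. The mean of 8 GMP markers (among them Elane and Mpo) was 8.49 to 9.52, 11.33 to 11.49 and 10.62 to 10.86 in the same order, and that of 7 measured cMoP markers (among them Csf1r and Irf8) 7.05 to 7.83, 8.08 to 8.70 and 9.94 to 10.13. Eng, which encodes the CD105 used for exclusion, still had a group mean of 8.5 in control CMPs. In bulk samples such as these, fewer cells of a type and less RNA per cell cannot be told apart.

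GMPs and cMoPs had more RNA than CMPs for the adaptors Myd88 and Ticam2, for the IkB kinase relative Ikbke, for the NF-kB subunit Rel, for Irak2 and Irak3, for the inhibitor Tnip1, and for Nod1 and Card9, while Rela was lower in both. A call here is a limma test over all 22180 genes at a Benjamini-Hochberg false discovery rate under 0.05, with both waters given equal weight. The calls of Irak2, and those of Rel and Rela from CMPs to GMPs, were lost in some fits with 1 array left out. From CMPs to GMPs 11 of the 32 genes were called, 10 higher and 1 lower, against 16% of all genes (7.87% higher and 8.17% lower). Bright genes were called more often: of the genes brighter than the median gene, 27.8% were called, 13.4% higher and 14.4% lower. From CMPs to cMoPs 14 were called, 11 higher and 3 lower, against 18.9% of all genes (9.72% higher and 9.2% lower) and 32.6% of the brighter ones (16.5% higher and 16.1% lower). From GMPs to cMoPs 2 were called, Ticam2 higher and Irak3 lower, against 5.42% of all genes (2.6% higher and 2.82% lower) and 9.89% of the brighter ones. The members' shares were 34.4%, 43.8% and 6.25% in that order. Both comparisons with CMPs use the same 6 CMP arrays. The median difference of the 32 genes was 0.091 from CMPs to GMPs, 0.127 from CMPs to cMoPs and 0.033 from GMPs to cMoPs, beside 0.025, 0.044 and 0.013 for all genes. In all, 17 of the 32 genes were called in none of these comparisons, 5 in 1, 8 in 2 and 2 in 3.

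**Figure D1:**
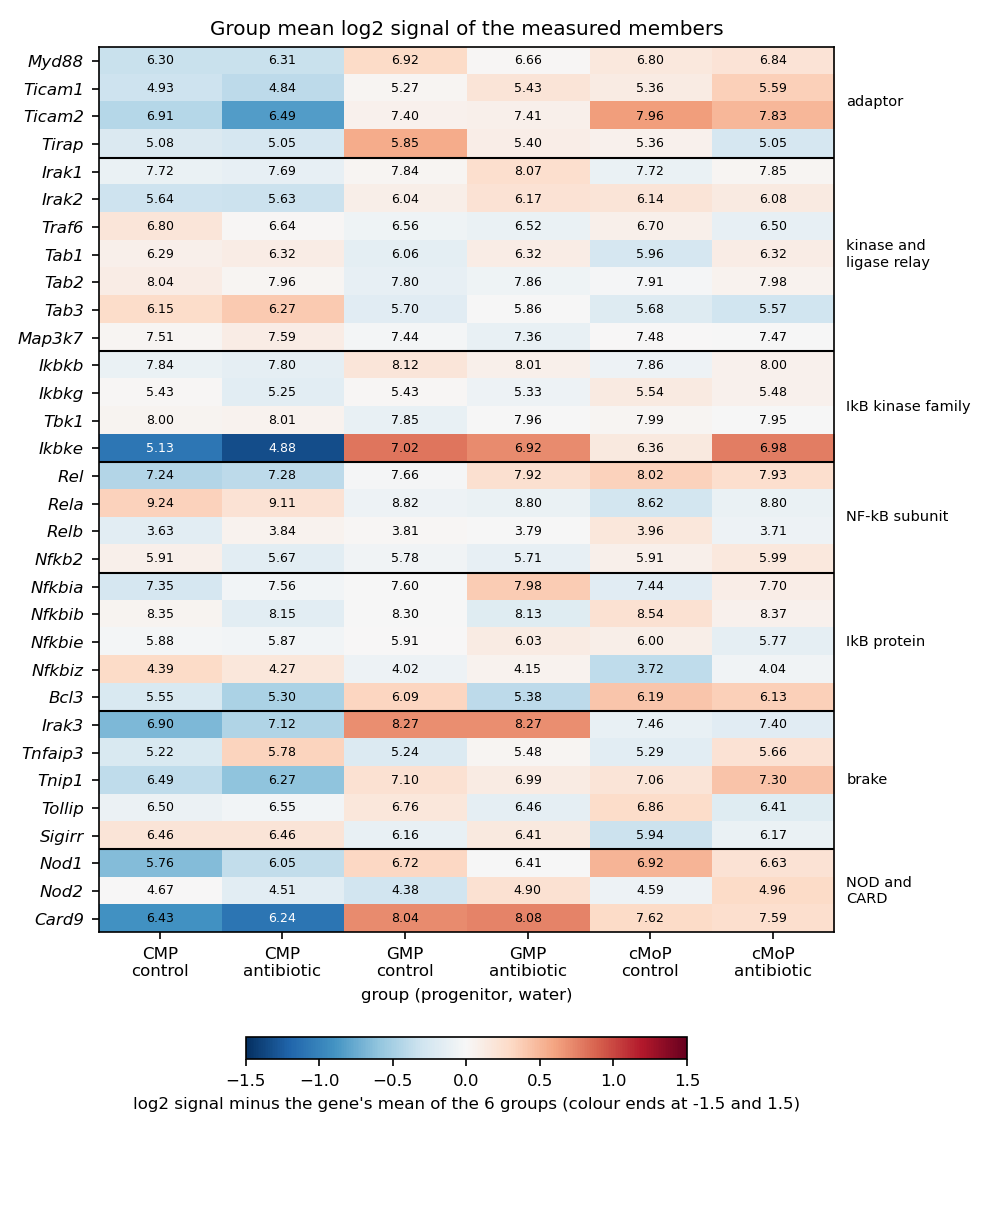
Group mean log2 signal (number in each cell) of the 32 genes, in rows by role, in the 6 groups of progenitor and water; colour is the signal minus the gene's mean of the 6 groups. Ikbke, Card9, Ticam2 and Irak3 have the widest colour ranges, with CMPs lowest, and most of the relay kinases and IkB proteins stay near white.

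All 4 adaptors, the proteins that dock on the receptors' intracellular TIR domains, were measured. From CMPs to GMPs 3 of the 4 were higher, and from CMPs to cMoPs also 3 of the 4, though not the same 3. Ticam2 (TRAM, the bridge between TLR4 and TRIF; probe set 17354269) showed the largest adaptor differences. It read 7.03, 6.88 and 6.82 on the control CMP arrays and 6.42, 6.59 and 6.47 on the antibiotic ones. In GMPs the values were 7.64 and 7.16 with control water and 7.34, 7.41 and 7.47 with antibiotics. In cMoPs they were 8.0 and 7.93 with control water and 8.0, 7.49 and 8.01 with antibiotics. All 10 GMP and cMoP arrays thus lay above all 6 CMP arrays, while GMPs and cMoPs overlapped. Ticam2 was higher in GMPs than in CMPs by 0.70 ± 0.12 SE (1.63-fold, adjusted p = 0.000389) and higher in cMoPs than in CMPs by 1.20 ± 0.12 SE (2.29-fold, adjusted p = 1.18e-06). On control arrays alone the GMP difference was 0.49 (adjusted p = 0.107) and on antibiotic arrays alone 0.91 (adjusted p = 0.000725), while the cMoP difference was called in both. Here and below, values on the arrays of 1 water contrast those groups only, with the spread estimated from all 16 arrays. The step from GMPs to cMoPs, 0.50 ± 0.12 SE (adjusted p = 0.0249), was called on all arrays but was lost when any 1 of 6 of the GMP and cMoP arrays was left out (0.38 to 0.51, adjusted p = 0.0556 to 0.15): both cMoP control arrays, cMoP antibiotic replicates 1 and 3, GMP antibiotic replicate 1 and GMP control replicate 2.

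Myd88, the adaptor of nearly all TLRs and of the IL-1 receptor family (probe set 17532137), lay between 6.01 and 6.56 on the 6 CMP arrays, between 6.42 and 6.94 in GMPs and between 6.6 and 7.04 in cMoPs. It was higher than in CMPs by 0.48 ± 0.12 SE in GMPs (adjusted p = 0.00864) and by 0.51 ± 0.12 SE in cMoPs (adjusted p = 0.00493), and only the cMoP arrays were free of overlap with CMPs. The GMP difference was not called on antibiotic arrays alone (0.35, adjusted p = 0.214), nor the cMoP difference on control arrays alone (0.50, adjusted p = 0.0914). The remaining adaptors were each called in 1 comparison. Tirap, which bridges TLR2 and TLR4 to MyD88, was higher in GMPs than in CMPs (0.56 ± 0.15 SE, adjusted p = 0.0163), and without GMP control replicate 2 it was not called (0.54, adjusted p = 0.0609). On control arrays alone the difference was 0.77 (adjusted p = 0.0429) and on antibiotic arrays alone 0.34 (adjusted p = 0.369). In cMoPs the Tirap difference from CMPs was 0.14. Ticam1 (TRIF, the adaptor of TLR3 and of internalised TLR4) was higher in cMoPs than in CMPs (0.59 ± 0.17 SE, adjusted p = 0.0234), a call lost without any 1 of 5 arrays, namely cMoP antibiotic replicate 1, cMoP control replicate 2, CMP antibiotic replicates 1 and 2 or CMP control replicate 3 (0.51 to 0.55, adjusted p = 0.0546 to 0.104). It was not called on control arrays alone (0.42, adjusted p = 0.361). In GMPs it differed from CMPs by 0.47 (adjusted p = 0.083).

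**Figure D2:**
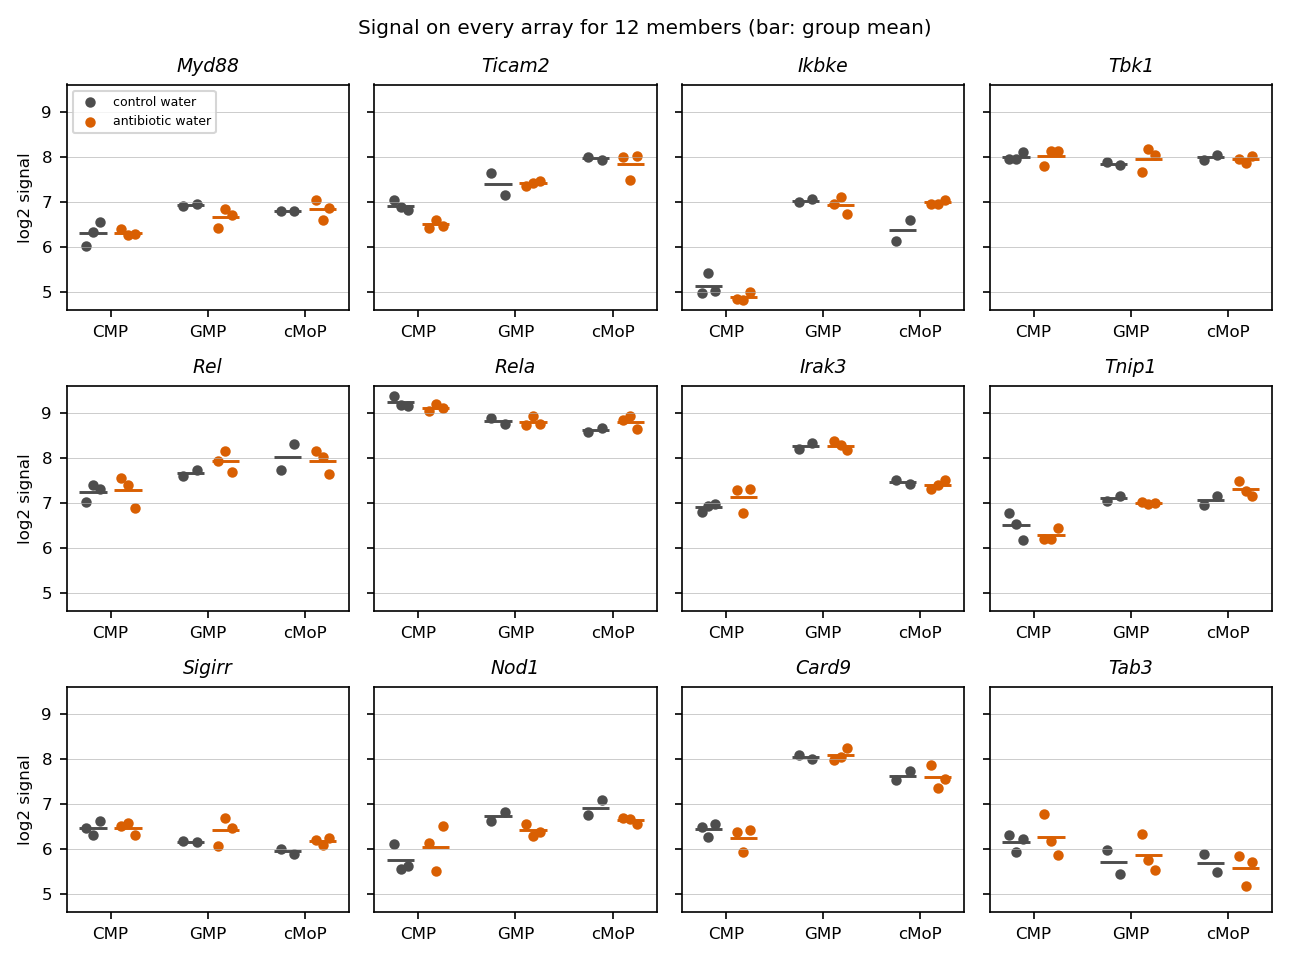
Log2 signal on each of the 16 arrays (points) for 12 of the genes, by progenitor and water; horizontal bars are group means. Ikbke, Card9 and Irak3 lie higher in every GMP array than in any CMP array, Rela lies lower, and the points of Tbk1 overlap across the 3 progenitors.

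Of the 8 relay kinases and ligases listed, 7 were measured, and their differences were small. Irak2, a kinase that sustains MyD88 signalling, was the 1 relay gene higher in GMPs (0.47 ± 0.15 SE, adjusted p = 0.0396) and in cMoPs (0.47 ± 0.15 SE, adjusted p = 0.0352). Neither call was made on the arrays of 1 water alone (adjusted p = 0.104 to 0.347 in GMPs and 0.177 to 0.199 in cMoPs). Its groups overlapped, and 7 arrays could each end either call when left out (0.37 to 0.48, adjusted p = 0.063 to 0.194 in GMPs and 0.0564 to 0.149 in cMoPs). CMP antibiotic replicates 1 and 2 and CMP control replicates 2 and 3 were among the 7 in both. The others were GMP antibiotic replicates 1 and 3 and GMP control replicate 1, and cMoP antibiotic replicates 1 and 3 and cMoP control replicate 2. Tab3, a ubiquitin-binding subunit of the TAK1 complex (probe set 17536170), was the 1 relay gene that was lower. It read 6.31, 5.93 and 6.21 on control and 6.78, 6.16 and 5.87 on antibiotic CMP arrays. The GMP values were 5.96 and 5.43 on control and 6.32, 5.74 and 5.53 on antibiotic arrays, and the cMoP values 5.88 and 5.48 on control and 5.83, 5.18 and 5.71 on antibiotic arrays. The lowest CMP array, 5.87, was below the highest cMoP array, 5.88, so the groups overlapped slightly. Tab3 was lower in cMoPs than in CMPs by 0.58 on the log2 scale (difference -0.58 ± 0.19 SE, adjusted p = 0.0454), the weakest of the 14 calls. It was lost without any 1 of 9 arrays (-0.68 to -0.46, adjusted p = 0.0549 to 0.168): CMP antibiotic replicates 1 and 2, CMP control replicates 1 and 3, GMP antibiotic replicate 2, cMoP antibiotic replicates 2 and 3 and cMoP control replicates 1 and 2. It was also lost with quantile normalization (-0.52, adjusted p = 0.0872), with every probe set tested (adjusted p = 0.0972), on control arrays alone (-0.47, adjusted p = 0.369) and on antibiotic arrays alone (-0.70, adjusted p = 0.096). From CMPs to GMPs the Tab3 difference was -0.43 (adjusted p = 0.164). Irak1, Traf6, Tab1, Tab2 and Map3k7 (TAK1 itself) were called in none of the comparisons, with differences from CMPs between -0.19 and 0.25.

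Within the IkB kinase family, 1 of the 4 measured genes differed and it did so by more than any other of the 32. Ikbke encodes IKK-epsilon, which with TBK1 phosphorylates interferon regulatory factors (probe set 17226771). It read 4.98, 5.41 and 5.01 on the control CMP arrays and 4.83, 4.81 and 4.99 on the antibiotic CMP arrays. GMPs read 7.0 and 7.05 with control water and 6.94, 7.10 and 6.72 with antibiotics. The cMoP values were 6.12 and 6.6 with control water and 6.95, 6.96 and 7.04 with antibiotics. Every GMP and cMoP array was thus above every CMP array, with the control cMoPs between. The difference from CMPs was 1.97 ± 0.11 SE in GMPs (3.91-fold, adjusted p = 4.28e-09) and 1.67 ± 0.11 SE in cMoPs (3.17-fold, adjusted p = 2.32e-08). With control arrays alone it was 1.89 in GMPs and 1.23 in cMoPs, and with antibiotic arrays alone 2.04 and 2.11, all called. Tbk1, its closest relative, lay between 7.66 and 8.17 on all 16 arrays, with differences from CMPs of -0.10 in GMPs (95% interval -0.33 to 0.12) and -0.04 in cMoPs (-0.26 to 0.19). Ikbkb (IKK-beta, the kinase that phosphorylates IkB in the classical route) differed by 0.24 and 0.11, and Ikbkg (NEMO, the regulatory subunit) by 0.04 and 0.17, none of them called.

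**Figure D3:**
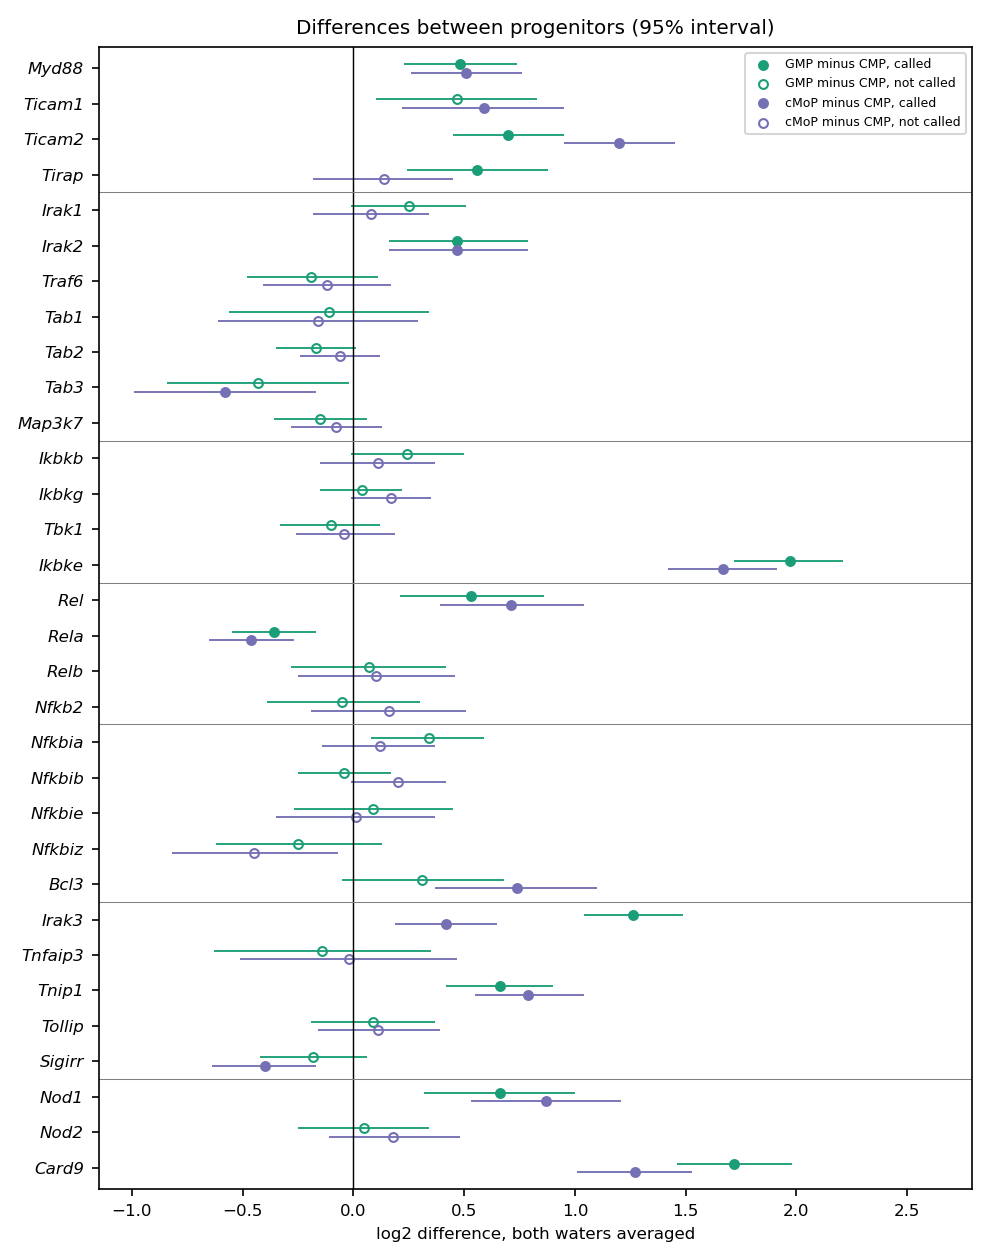
Log2 difference of GMPs (green) and cMoPs (purple) from CMPs for the 32 genes, both waters averaged, with 95% intervals; filled points were called at a false discovery rate under 0.05. Ikbke (1.97 and 1.67) and Card9 (1.72 and 1.27) lie farthest to the right, and Rela, Tab3 and Sigirr are the filled points left of 0.

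The 4 NF-kB subunits split. Rel (c-Rel, probe set 17261107) lay between 6.89 and 7.56 on the CMP arrays, between 7.60 and 8.16 in GMPs and between 7.63 and 8.31 in cMoPs. No GMP or cMoP array reached down to the CMPs. It was higher than in CMPs by 0.53 ± 0.15 SE in GMPs (adjusted p = 0.0258) and by 0.71 ± 0.15 SE in cMoPs (adjusted p = 0.00307). The GMP call was lost without any 1 of 5 arrays (0.44 to 0.57, adjusted p = 0.0578 to 0.093): GMP control replicates 1 and 2, GMP antibiotic replicate 2, CMP control replicate 1 or CMP antibiotic replicate 3. Rela (p65, the main activating subunit; probe set 17356490) went the other way. It read 9.38, 9.17 and 9.16 on control and 9.04, 9.19 and 9.10 on antibiotic CMP arrays. In GMPs it read 8.88 and 8.76 with control water and 8.72, 8.93 and 8.76 with antibiotics, and in cMoPs 8.58 and 8.67, then 8.85, 8.92 and 8.64. All 10 later arrays were below all 6 CMP arrays. Rela was lower by 0.36 in GMPs (difference -0.36 ± 0.09 SE, adjusted p = 0.0103) and by 0.46 in cMoPs (-0.46 ± 0.09 SE, adjusted p = 0.00143), and without GMP control replicate 2 the GMP difference was -0.33 (adjusted p = 0.0532). Neither subunit's GMP call was made on control arrays alone (adjusted p = 0.335 for Rel and 0.0736 for Rela) or on antibiotic arrays alone (0.0604 and 0.137), and the cMoP call of Rela was not made on antibiotic arrays alone (-0.31, adjusted p = 0.12). Relb and Nfkb2, the subunits of the alternative route, differed from CMPs by -0.05 to 0.16 and were not called.

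Several genes of the pathway are textbook targets of NF-kB, whose dimers bind the sequence class called the kappa B consensus. The 250 bases before each start listed for a gene (mouse build GRCm38.p6) were searched for it on both strands. A listed start can lie inside the gene's RefSeq span. The spans of Map3k7 and Nfkb2 begin at 31963492 and 46300994, while their first windows begin at 31963857 and 46304487. The Tnip1 window overlaps the minus-strand span of the gene, which ends at 54962956. Overlapping matches were merged, and a match is a description of letters, not a binding site. A window was searched for 26 of the 32 genes. Some genes had several windows, and a gene counted if any of its windows held a match. By that rule 7 of the 26 held a match (26.9%), beside 1204 of 27025 genes in all (4.46%). The number of windows per gene was not taken into account. The 7 were Map3k7, Nfkb2, Nfkbia, Nfkbie, Rel, Tnfaip3 and Tnip1. No window was searched for Nfkbiz, Ikbkb, Ticam2, Relb, Tab1 and Sigirr, so whether they hold a match is not known. The shares of genes with a match were not tested against each other. The windows of 2 IkB genes, of the brake Tnfaip3 and of the subunit Rel follow, since the inhibitors and the subunit are known to respond to NF-kB. Capitals mark the consensus match, and each window ends at the base before the listed start.
Nfkbia, minus strand, chr12:55492648-55492897: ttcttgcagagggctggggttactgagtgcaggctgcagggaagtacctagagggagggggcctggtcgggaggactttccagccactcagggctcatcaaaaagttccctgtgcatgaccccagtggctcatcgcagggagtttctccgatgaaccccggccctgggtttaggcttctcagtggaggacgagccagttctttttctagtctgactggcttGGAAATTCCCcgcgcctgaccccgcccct
Nfkbie, plus strand, chr17:45555450-45555699: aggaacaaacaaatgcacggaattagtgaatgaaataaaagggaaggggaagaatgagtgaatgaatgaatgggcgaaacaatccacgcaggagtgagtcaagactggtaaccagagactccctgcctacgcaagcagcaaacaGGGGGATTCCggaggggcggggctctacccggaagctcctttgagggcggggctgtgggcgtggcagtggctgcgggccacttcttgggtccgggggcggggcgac
Tnfaip3, minus strand, chr10:19015411-19015660: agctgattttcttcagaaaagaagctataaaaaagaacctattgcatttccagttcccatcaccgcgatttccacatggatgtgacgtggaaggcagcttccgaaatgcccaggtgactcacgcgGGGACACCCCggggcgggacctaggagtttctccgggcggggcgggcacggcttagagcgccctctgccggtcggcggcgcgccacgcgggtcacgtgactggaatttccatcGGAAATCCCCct
Rel, minus strand, chr11:23770970-23771219: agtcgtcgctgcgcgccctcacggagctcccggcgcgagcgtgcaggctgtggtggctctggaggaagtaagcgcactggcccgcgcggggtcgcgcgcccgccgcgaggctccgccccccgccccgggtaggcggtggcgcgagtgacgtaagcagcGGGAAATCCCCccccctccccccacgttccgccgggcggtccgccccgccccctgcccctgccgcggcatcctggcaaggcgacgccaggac

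The match nearest the start lay 29 to 20 bases before it in Nfkbia, 106 to 97 bases before it in Nfkbie, 12 to 3 bases before it in Tnfaip3 and 92 to 82 bases before it in Rel. Nfkbia and Map3k7 held the same 10 letters, GGAAATTCCC. Tnip1 held GGGGAATTCCCC from 58 to 47 bases before its listed start. Nfkb2, with 3 windows, held 4 matches, among them GGGAATTCCCC and GGGACTTTCC. A further Tnfaip3 window, chr10:19011964-19012213, held none. Of the 7 genes with a match, Rel and Tnip1 were called between progenitors and the other 5 were not. Among all 32 genes, 17 were called in none of these comparisons, and a link between matches and calls was not tested.

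The 5 IkB genes hold NF-kB in the cytoplasm or modify it in the nucleus. None was called from CMPs to GMPs, and 1 was called from CMPs to cMoPs. Bcl3, a nuclear IkB that works with NF-kB dimers on DNA (probe set 17487457), read 5.90, 5.36 and 5.39 on control and 5.32, 5.68 and 4.89 on antibiotic CMP arrays. In GMPs it read 6.18 and 6.00 with control water and 4.99, 5.65 and 5.50 with antibiotics. In cMoPs it read 6.07 and 6.31 with control water and 6.37, 5.76 and 6.27 with antibiotics. The lowest cMoP array was below the highest CMP array, and GMPs spanned both. Bcl3 was higher in cMoPs than in CMPs by 0.74 ± 0.17 SE (1.67-fold, adjusted p = 0.00547), while the difference of GMPs from CMPs was 0.31 (adjusted p = 0.277). On control arrays alone the cMoP difference was not called (0.64, adjusted p = 0.144). Nfkbia (IkB-alpha, the fast-resynthesised inhibitor) differed from CMPs by 0.34 in GMPs (adjusted p = 0.0743) and by 0.12 in cMoPs. Nfkbib, Nfkbie and Nfkbiz (IkB-zeta, a nuclear cofactor) were not called, with differences from CMPs of -0.45 to 0.20.

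Among the 5 brakes, Irak3 had its own order over the progenitors. Irak3 encodes IRAK-M, a kinase relative that blocks release of the IRAK complex (probe set 17245399). It read 6.80, 6.92 and 6.97 on control and 7.29, 6.78 and 7.30 on antibiotic CMP arrays. In GMPs it read 8.2 and 8.34 with control water and 8.37, 8.28 and 8.17 with antibiotics. In cMoPs it read 7.51 and 7.41 with control water and 7.30, 7.39 and 7.51 with antibiotics. GMPs were above every other array, and the lowest cMoP array equalled the highest CMP array at 7.30. Irak3 was higher in GMPs than in CMPs by 1.26 ± 0.11 SE (2.4-fold, adjusted p = 2.96e-07) and lower in cMoPs than in GMPs by 0.84 (difference -0.84 ± 0.11 SE, adjusted p = 0.000137). From CMPs to cMoPs it was higher by 0.42 ± 0.11 SE (adjusted p = 0.00963), with 0.56 on control arrays alone (adjusted p = 0.0318) and 0.28 on antibiotic arrays alone (adjusted p = 0.266).

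Tnip1 (ABIN1, which binds ubiquitin chains with A20; probe set 17262855) lay between 6.17 and 6.78 in CMPs, between 6.98 and 7.15 in GMPs and between 6.95 and 7.49 in cMoPs, free of overlap with CMPs. It was higher than in CMPs by 0.66 ± 0.11 SE in GMPs (adjusted p = 0.000551) and by 0.79 ± 0.11 SE in cMoPs (adjusted p = 7.85e-05). Its partner Tnfaip3 (A20, the deubiquitinase that ends NF-kB signalling) differed by -0.14 and -0.02, with 95% intervals from -0.63 to 0.35 and from -0.51 to 0.47. Sigirr, a receptor-like inhibitor of IL-1 and TLR signals (probe set 17497729), was lower in cMoPs. The Sigirr values were 6.45, 6.31 and 6.62 on control and 6.50, 6.57 and 6.31 on antibiotic CMP arrays. In GMPs they were 6.16 and 6.15 with control water and 6.07, 6.68 and 6.47 with antibiotics. In cMoPs they were 6.00 and 5.88, then 6.20, 6.09 and 6.23. Every cMoP array was below every CMP array, and GMPs spanned both. Sigirr was lower in cMoPs than in CMPs by 0.40 (difference -0.40 ± 0.11 SE, adjusted p = 0.0168), and without cMoP control replicate 2 by 0.37 (difference -0.37, adjusted p = 0.0668). It was not called on control arrays alone (-0.52, adjusted p = 0.0605) or on antibiotic arrays alone (-0.29, adjusted p = 0.274). Tollip, an adaptor that restrains IRAK1, differed from CMPs by 0.09 and 0.11 and was not called.

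Of the NOD and CARD genes, 2 of 3 were higher in both GMPs and cMoPs. Card9, the relay of fungal receptors such as Dectin-1 (probe set 17382920), read 6.49, 6.26 and 6.55 on control and 6.38, 5.92 and 6.42 on antibiotic CMP arrays. In GMPs it read 8.09 and 7.99 with control water and 7.97, 8.03 and 8.23 with antibiotics. In cMoPs it read 7.52 and 7.72 with control water and 7.86, 7.36 and 7.56 with antibiotics. The 3 progenitors did not overlap, with GMPs highest and CMPs lowest. Card9 was higher than in CMPs by 1.72 ± 0.12 SE in GMPs (3.3-fold, adjusted p = 3.69e-08) and by 1.27 ± 0.12 SE in cMoPs (2.41-fold, adjusted p = 9.82e-07). The difference between cMoPs and GMPs, -0.45 ± 0.13 SE, was not called (adjusted p = 0.0529).

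Nod1, the sensor of peptidoglycan fragments that contain diaminopimelic acid (probe set 17467015), read 6.10, 5.55 and 5.62 on control and 6.13, 5.50 and 6.51 on antibiotic CMP arrays. In GMPs the readings were 6.62 and 6.82 with control water and 6.56, 6.28 and 6.38 with antibiotics. In cMoPs they were 6.74 and 7.09 with control water and 6.69, 6.65 and 6.55 with antibiotics. CMP antibiotic replicate 3, at 6.51, lay inside the GMP range, and all cMoP arrays were above all CMP arrays. Nod1 was higher than in CMPs by 0.66 ± 0.16 SE in GMPs (adjusted p = 0.00842) and by 0.87 ± 0.16 SE in cMoPs (adjusted p = 0.000804). On control arrays alone the differences were 0.96 and 1.16, both called, and on antibiotic arrays alone 0.36 (adjusted p = 0.384) and 0.58 (adjusted p = 0.0923). Nod2, the sensor of muramyl dipeptide, differed from CMPs by 0.05 and 0.18 on its brighter probe set and was not called.

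Other cell types' markers also moved between the progenitors. The mean of 8 eosinophil, basophil and mast cell markers (among them Prg2 and Epx) was 7.33 to 7.74 on the GMP arrays, 6.15 to 6.63 in CMPs and 4.60 to 4.85 in cMoPs, so it peaked where Irak3 and Card9 peaked. Of its defining genes, Prg2 (control group means 8.36 in CMPs, 11.91 in GMPs and 7.50 in cMoPs) and Epx (5.52, 8.93 and 5.03) had this order, Gata2, which CMPs also express, did not (9.51, 7.26 and 5.20), and Il5ra (2.83, 3.24 and 2.84) and Fcer1a (2.24, 2.58 and 1.96) were dim throughout. The mean of 7 measured dendritic cell markers (among them Flt3 and H2-Ab1) was 5.23 to 5.79 in CMPs, 4.50 to 4.66 in GMPs and 4.54 to 4.80 in cMoPs. The mean of 8 mature neutrophil markers (among them Ltf and Ngp) was 8.52 to 9.06 in CMPs, 8.30 to 8.53 in GMPs and 8.0 to 8.33 in cMoPs. S100a8 of that list was instead highest in GMPs (control group means 11.91, 12.24 and 11.46). The mean of 8 macrophage markers also peaked in GMPs (4.83 to 5.04), beside 4.30 to 4.79 in CMPs and 4.47 to 4.68 in cMoPs. Vcam1 (control group means 5.44, 7.42 and 5.04) and Marco (4.22, 4.71 and 4.49) had this peak, while Adgre1 was highest in cMoPs (3.5, 5.13 and 5.68). With control water C1qa (5.35, 5.08 and 4.97), C1qb (5.4, 5.12 and 4.83) and C1qc (5.28, 5.03 and 4.5) were instead highest in CMPs. Mrc1 (4.01, 3.95 and 3.78) and Timd4 (3.26, 3.14 and 3.22) were also highest there. The part of these cells in the differences above was not tested. Arrays of the 2 progenitors compared did not overlap for 7 of the 32 genes from CMPs to GMPs (11.2% of all genes did not), for 9 from CMPs to cMoPs (13.2%) and for 2, Irak3 and Card9, from GMPs to cMoPs (6.51%).

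The surrounding pathway also differed between progenitors. Of 24 receptors and co-receptors upstream, 13 were called from CMPs to GMPs (9 higher, 4 lower), 18 from CMPs to cMoPs (15 higher, 3 lower) and 10 from GMPs to cMoPs (9 higher, 1 lower). These were 54.2%, 75% and 41.7% of the 24, beside 16%, 18.9% and 5.42% of all genes and 27.8%, 32.6% and 9.89% of the brighter ones. The medians over the 24 were 0.155, 0.644 and 0.207 in that order, beside 0.025, 0.044 and 0.013 for all genes. Clec7a (Dectin-1, which signals through Card9) was higher in cMoPs than in CMPs by 3.10 ± 0.24 SE (8.57-fold, adjusted p = 1.06e-07), and Ly86, which encodes the MD-1 partner of the receptor RP105, by 2.56 ± 0.20 SE. Il1r1, the IL-1 receptor that signals through Myd88, was lower by 1.99 (difference -1.99 ± 0.13 SE) and Tlr7 by 0.69 (difference -0.69). In GMPs, compared with CMPs, Tlr4 was higher by 1.83 and Tnfrsf1b, a receptor for TNF, by 1.44, while Il1r1 (-2.17) and Il18r1 (-0.62) were lower. From GMPs to cMoPs Ly86 (2.01) and Clec7a (1.93) were higher, and the 1 receptor that was lower was Tlr4 (-1.0). Tlr4 thus peaked in GMPs, as Irak3 did.

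Of 36 further pathway genes 33 were measured. In GMPs 8 were higher than in CMPs and 3 lower, from CMPs to cMoPs 9 were higher and 3 lower, and from GMPs to cMoPs 4 were higher. The shares called were 33.3%, 36.4% and 12.1%, beside the same 16%, 18.9% and 5.42% of all genes and 27.8%, 32.6% and 9.89% of the brighter ones. Unc93b1, the chaperone that takes nucleic-acid-sensing TLRs to endosomes, was higher than in CMPs by 1.29 ± 0.11 SE in GMPs and by 2.19 ± 0.11 SE in cMoPs (4.56-fold, adjusted p = 7.6e-10), and higher in cMoPs than in GMPs by 0.89. Peli2, a ubiquitin ligase of the IRAK complex, was higher by 1.22 in GMPs, and Nfkbid (an atypical nuclear IkB) was higher by 0.77 in cMoPs. Irf7, the interferon regulator downstream of TLR7 and TLR9, was lower by 1.31 in GMPs (difference -1.31) and by 1.57 in cMoPs (difference -1.57), and Tnip3, a relative of Tnip1, by 0.84 (-0.84) and 0.85 (-0.85). Otulin, a deubiquitinase of linear chains, was higher in cMoPs than in GMPs by 0.45. The medians over the 33 genes were 0.008 from CMPs to GMPs, 0.157 from CMPs to cMoPs and 0.060 from GMPs to cMoPs.

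All 30 NF-kB target genes listed were measured, and they did not move one way. In GMPs 4 were higher than in CMPs and 4 lower, from CMPs to cMoPs 5 were higher and 6 lower, and from GMPs to cMoPs 1 was higher and 2 lower. That is 26.7%, 36.7% and 10% of the 30, beside 16%, 18.9% and 5.42% of all genes and 27.8%, 32.6% and 9.89% of the brighter ones. Gadd45b, a stress-response gene, was higher than in CMPs by 2.49 ± 0.14 SE in GMPs (5.63-fold) and by 1.91 in cMoPs, and Plaur, the urokinase receptor, by 1.33 and 1.35. The chemokine Ccl3 was lower by 2.22 in GMPs (difference -2.22 ± 0.27 SE) and by 1.43 in cMoPs (difference -1.43), Ccl5 by 1.24 in GMPs (-1.24) and Ccl4 by 1.10 in cMoPs (-1.10). Between GMPs and cMoPs, Tnfaip2 was higher in cMoPs by 0.37, and Ier3 (-1.15) and Gadd45b (-0.58) were lower. The median difference of the target genes from CMPs was 0.089 in GMPs and 0.120 in cMoPs, and that of cMoPs from GMPs 0.023.

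Antibiotic water left no called difference in the 32 genes. The study's stated rate for water, a false discovery rate under 0.2, was used. As the mean over the 3 progenitors 0 of 32 genes were called by limma, beside 0.514% of all genes, and in CMPs, GMPs and cMoPs taken singly 0, 0 and 0 were called, beside 0.0406%, 0.0721% and 0.131%. The test of whether the water effect differed between progenitors also called 0 of 32 (0.00451% of all genes). At an unadjusted p under 0.05 there were 3 genes for the mean, 1 in CMPs, 2 in GMPs, 2 in cMoPs and 1 for the interaction. For the mean that is 3 of 32, beside 9.54% of all genes. Of all genes, 7.24% in CMPs, 7.49% in GMPs, 6.2% in cMoPs and 5.79% for the interaction had such a p. The differences were centred on 0, with 16 positive and 16 negative and a median of 0.004, beside -0.013 for all genes. For the mean effect, the 95% intervals of 29 of the 32 genes lay within a 1.5-fold change either way. Within single progenitors this held for 23 in CMPs, 14 in GMPs and 14 in cMoPs, where fewer arrays gave wider intervals. The sign of the water difference was the same in all 3 progenitors for 8 of the 32 genes (25%), and for 30.2% of all genes.

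The 3 genes with the smallest unadjusted p for the mean were 2 IkB genes and a brake. Nfkbia (probe set 17281219) read 7.10, 7.56 and 7.39 on control and 7.25, 7.60 and 7.83 on antibiotic CMP arrays. In GMPs it read 7.54 and 7.67 with control water and 7.81, 8.13 and 7.99 with antibiotics, and in cMoPs 7.48 and 7.41, then 7.61, 7.62 and 7.86. The antibiotic arrays were above all control arrays in GMPs and in cMoPs and overlapped with them in CMPs. The mean difference was 0.28 ± 0.10 SE (1.21-fold, 95% interval 0.06 to 0.49; limma's unadjusted p = 0.014, adjusted p = 0.377), with 0.21, 0.37 and 0.25 in CMPs, GMPs and cMoPs. Bcl3, whose arrays are given above, had a mean difference of -0.34 ± 0.14 SE (adjusted p = 0.477). Its control and antibiotic arrays were apart only in GMPs, where the difference was -0.71 ± 0.26 SE (adjusted p = 0.542), with -0.25 in CMPs and -0.06 in cMoPs.

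Tollip (probe set 17498015) read 6.46, 6.52 and 6.51 on control and 6.29, 6.54 and 6.81 on antibiotic CMP arrays. In GMPs it read 6.87 and 6.65, then 6.47, 6.4 and 6.52, and in cMoPs 7.20 and 6.53 with control water and 6.66, 6.26 and 6.30 with antibiotics. The arrays were apart only in GMPs, and the cMoP value leaned on cMoP control replicate 1, at 7.20. The mean difference was -0.23 ± 0.11 SE (adjusted p = 0.519), and in cMoPs it was -0.46 ± 0.20 SE (adjusted p = 0.79). Ikbke, the gene with the largest progenitor difference, had the smallest unadjusted p of the 32 within cMoPs (0.62 ± 0.17 SE, 95% interval 0.26 to 0.99, unadjusted p = 0.00237, adjusted p = 0.547) and in the interaction test (adjusted p = 0.694). Its antibiotic cMoP arrays (6.95 to 7.04) were all above both control arrays (6.12 and 6.6), while in CMPs and GMPs the differences were -0.26 and -0.10. Without cMoP control replicate 2, which leaves 1 control cMoP array assumed to vary like the other groups, Ikbke (0.86, adjusted p = 0.139) and Tollip (-0.79, adjusted p = 0.195) were called in cMoPs, beside 1.02% of all genes. Without cMoP control replicate 1 the Ikbke difference was 0.38 (adjusted p = 0.998).

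**Figure D4:**
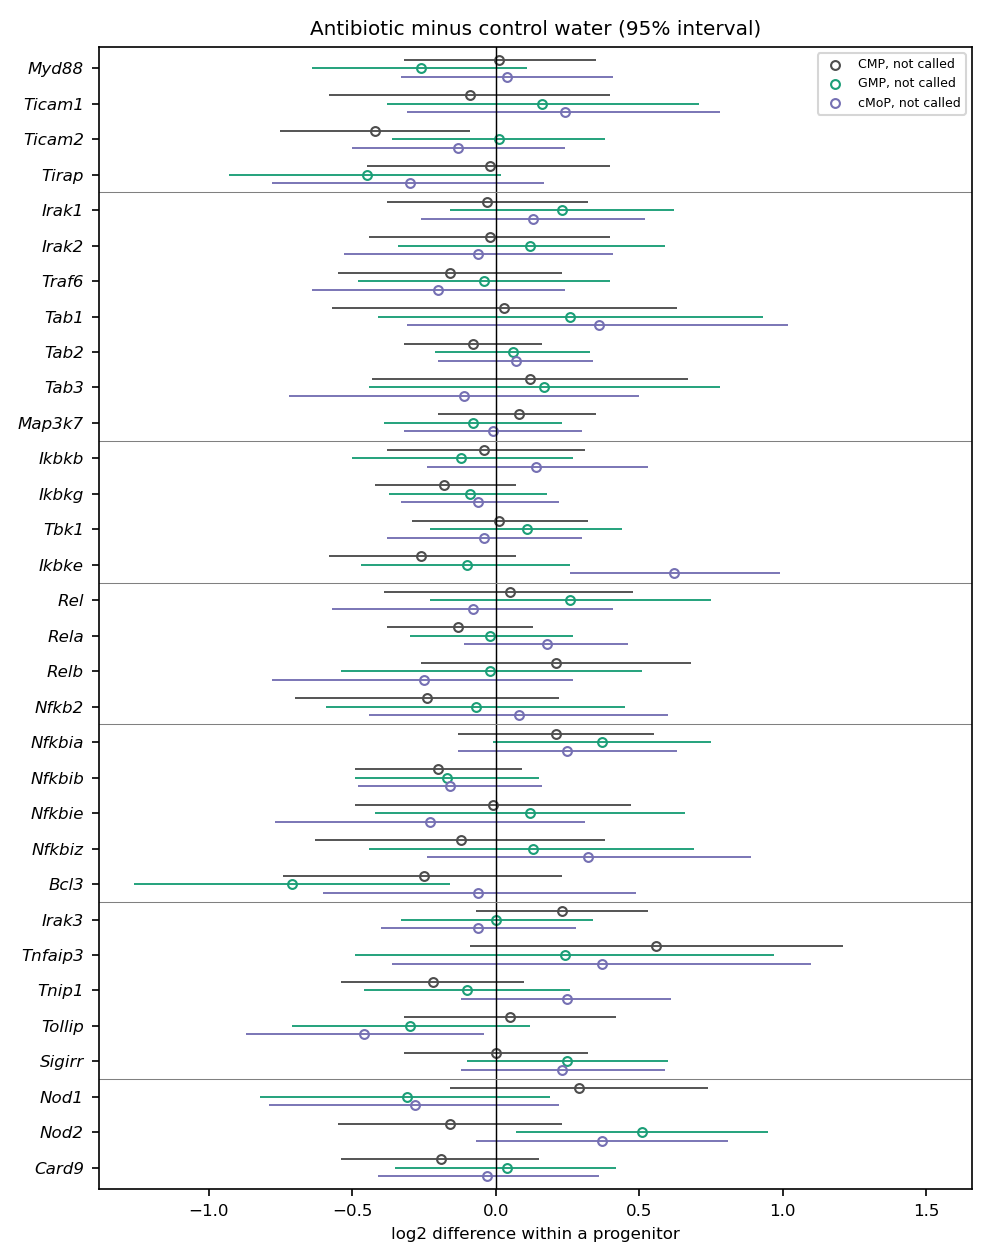
Log2 difference of antibiotic minus control water within CMPs (grey), GMPs (green) and cMoPs (purple) for the 32 genes, with 95% intervals; open points were not called at a false discovery rate under 0.2. No point is filled, and the largest differences either way are Ikbke in cMoPs (0.62) and Bcl3 in GMPs (-0.71).

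Control and antibiotic arrays did not overlap for 1 gene in CMPs (Ticam2, with a difference of -0.42 and an adjusted p of 0.58), for 10 genes in GMPs and for 5 in cMoPs. These were 3.12%, 31.2% and 15.6% of the 32, beside 11.6%, 23% and 21% of all genes, where groups of 2 and 3 arrays are often apart. In GMPs, Irak1, Nfkbia and Nod2 were the 3 higher ones, and Myd88, Tirap, Ikbkg, Bcl3, Tnip1, Tollip and Nod1 the 7 lower ones. In cMoPs, Ikbke, Nfkbia, Sigirr and Nod2 were higher and Nod1 was lower. Nod2 (probe set 17548687) differed by 0.51 ± 0.21 SE in GMPs (adjusted p = 0.61) and 0.37 ± 0.21 SE in cMoPs, and by -0.16 in CMPs. The dimmer Nod2 probe set (17503664) went the other way. In GMPs it read 4.22 and 4.23 with control water and 4.16, 3.8 and 3.89 with antibiotics. In cMoPs it read 4.28 and 4.1, then 3.84, 3.88 and 4.03. Its antibiotic arrays were thus lower without overlap in both, so the direction for Nod2 depends on the probe set. Nod1 differed by -0.31 and -0.28 in GMPs and cMoPs and by 0.29 in CMPs. Without CMP antibiotic replicate 3 the Nod1 difference in CMPs was 0.06, without CMP antibiotic replicate 2 it was 0.56 and without CMP control replicate 1 it was 0.46. In cMoPs it was -0.11 without control replicate 2 and -0.46 without control replicate 1. Tnfaip3 had the largest mean difference of the 32, 0.39 ± 0.19 SE, with a 95% interval from -0.01 to 0.80 (adjusted p = 0.545). Markers moved with water too: the cMoP markers averaged 7.72 to 7.83 on control and 7.05 to 7.55 on antibiotic CMP arrays, the dendritic cell markers 5.23 to 5.33 on control and 5.43 to 5.79 on antibiotic CMP arrays, and the CMP markers 5.94 to 6.37 on control and 6.62 to 6.71 on antibiotic GMP arrays. The markers of a list did not all move alike. In GMPs Car1 rose most (group means 6.7 with control water and 8.48 with antibiotics), while Gata1 (5.2 and 5.22), Gata2 (7.26 and 7.22) and Apoe (6.18 and 6.23) hardly differed. In CMPs H2-Aa rose most of the dendritic cell markers (4.37 and 5.5) and Xcr1 fell (3.69 and 3.55). Of the cMoP markers in CMPs, Klf4 rose (4.92 and 5.09). The part of these markers in the water differences was not tested.

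Around the 32 genes, 2 of the 24 receptors were called for water at a false discovery rate under 0.2, each in 1 comparison. Il1r1 was higher with antibiotics in the mean over the progenitors by 0.47 ± 0.11 SE (1.39-fold, adjusted p = 0.183), 1 call of 24 (4.17%) beside 0.514% of all genes. Of the 16 fits with 1 array left out, 4 kept this call (0.41 to 0.53, adjusted p = 0.131 to 0.404): those without GMP antibiotic replicate 1 or 3, cMoP antibiotic replicate 3 or cMoP control replicate 2. In GMPs the 1 call (4.17%, beside 0.0721% of all genes) was Ly96 (MD-2, the co-receptor that binds endotoxin for TLR4), with a difference of -1.04 ± 0.20 SE (adjusted p = 0.184). It was called in 5 of the 16 such fits (-1.22 to -0.87, adjusted p = 0.0865 to 0.581): those without cMoP antibiotic replicate 1 or 2, CMP antibiotic replicate 2 or 3 or GMP antibiotic replicate 3. None of the 33 further pathway genes and none of the 30 target genes was called for water by limma, with 4 and 2 of them at an unadjusted p under 0.05 for the mean. The medians for the mean water effect were 0.006 and -0.093 beside -0.013 for all genes.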

How the data were processed

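The authors deposited log2 signals, 1 for each probe set on each array. The submitters' processing notes name Transcriptome Analysis Console and Partek. How probes were summarised and arrays normalized is not given in these sources. Array quartiles were close (lower 2.89 to 2.99, upper 6.24 to 6.41), so values were used as deposited. Per the labels' protocols, 2.6 ng of RNA per sample was amplified with a NuGen kit. Of 41345 probe sets, 23521 carried 1 gene symbol in GEO's platform annotation, 1814 several and 16010 none; 23328 matched RefSeq by identifier and 0 symbols changed. The table has no detection calls, and no group mean of the 32 genes lay below the arrays' lower quartiles.

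A limma model (version 3.58.1, R 4.3.3) took 22180 genes (6 group means, 10 residual degrees of freedom, eBayes). Every adjusted p is a two-sided limma value with Benjamini-Hochberg adjustment over all genes, and the scripts were tested on simulated data. The study states a 2-way analysis of variance at a rate under 0.2, used here for water, and 0.05 was used for progenitors. Members and lists were chosen with earlier results of these data known. By rule, every array is given for the called genes with the largest differences (4 each way from CMPs to cMoPs, 3 each way otherwise) and for the 3 smallest unadjusted p of the mean water effect, and from each pathway list the 2 largest calls each way are named. Ranges for Myd88, Rel and Tnip1, and values named from single alternatives, were added after the values were seen. Alternatives were other scalings, filters, variance models, probe set rules, thresholds and replicate blocks, each array left out, and, added after seeing the data, progenitors within each water and each array left out for Il1r1 and Ly96. Protein sequences were not used here.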

Additional observations from a re-analysis of the deposited data

How the results depend on the processing

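Of the calls on all arrays, 7 of 11 from CMPs to GMPs, 1 of 2 from GMPs to cMoPs (Irak3) and 10 of 14 from CMPs to cMoPs were also made in each other fit over both waters at the same rate and with each array left out; the rest are named beside their values or here, and 0 of the 224 differences of single genes reversed while called. With 1 array left out in turn, 8 to 12 members were called from CMPs to GMPs, 1 to 3 from GMPs to cMoPs, 10 to 15 from CMPs to cMoPs and 0 to 2 for water in cMoPs, and 0 for water in CMPs, in GMPs, as the mean and for the interaction. Where the array left out came from a group of 3, 14.3% to 15.7% of all genes were called from CMPs to GMPs. The ranges of members are given without the share for every fit, so they are not read as a result about the members. From CMPs to GMPs 7 were called at a rate of 0.01, beside 10.5% of all genes, 7 on control arrays alone and 5 on antibiotic arrays alone. From CMPs to cMoPs 8 were called on control arrays alone and 8 on antibiotic arrays alone. From GMPs to cMoPs 1 was called with every probe set tested (beside 2.83% of all probe sets) and with only the groups compared (4.95% of all genes). At a rate of 0.01, and on control or antibiotic arrays alone, 1 was also called. The counts on 1 water are given without the share of all genes, so they are not read as a result about the members. The contrasts of 1 water use fewer arrays for each mean, and the cause of the changes was not tested. Testing every probe set ended the calls of Irak2 in GMPs (0.47, adjusted p = 0.0837) and cMoPs (0.47, adjusted p = 0.0739), Rel in GMPs (0.53, adjusted p = 0.0601), Ticam1 in cMoPs (0.59, adjusted p = 0.0565) and Ticam2 from GMPs to cMoPs (0.50, adjusted p = 0.0549). Fitting only the groups compared ended those of Irak2 in cMoPs (adjusted p = 0.0539) and Ticam2 from GMPs to cMoPs (adjusted p = 0.0685). Card9 was called from GMPs to cMoPs with quantile normalization (-0.46, adjusted p = 0.0393) and with trended robust variances (-0.45, adjusted p = 0.0348). Deviations of same-numbered arrays from their group means correlated at -0.049 to 0.104 over 36 pairs. The median was 0.029 over 15 pairs of the same water and -0.001 over 21 pairs of separate waters. Pairs with unlike numbers were not computed, and the labels do not say which arrays share mice. The check therefore cannot tell whether progenitors came from the same mice under other numbers. With the replicate number as a fixed block 13, 3 and 15 members were called from CMPs to GMPs, GMPs to cMoPs and CMPs to cMoPs. The added ones were Tab3 (-0.46, adjusted p = 0.0252) and Nfkbia (0.37, adjusted p = 0.0298), Card9 (-0.45, adjusted p = 0.0424) and Nfkbiz (-0.51, adjusted p = 0.0178), in that order. With a random block 11, 2 and 14 were called, and with either block 0 for water and for the interaction. Of all genes, the fixed block called 15.5% from CMPs to GMPs and 5.23% from GMPs to cMoPs, and the random block 16.2% and 5.5%. The block counts from CMPs to cMoPs are given without that share. No other scaling moved the median of all genes by 0.1. The labels name no scan date or slide, so batches were not tested, and groups of 2 and 3 arrays were not tested for outlying arrays.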
